A study of Arabidopsis thaliana with 357 samples.

Results

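The transcript response of Arabidopsis leaves 18 h after flg22 treatment was compared between wild type and a mutant without the flg22 receptor. Members were the 12 libraries labelled JEPS or fls2 and 18 h or 0 h, 3 replicates each, of 357 libraries in the series. The response of a gene was its change between 0 h and 18 h, and the value reported is the response in JEPS minus the response in fls2, on the log2 scale. A positive value therefore means that the transcript ended higher in JEPS than in fls2, relative to the 0 h level of each genotype.

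JEPS is the accession Col-0, in which DDE2, EIN2, PAD4 and SID2, which carry jasmonate (JA) synthesis, ethylene (ET) signaling, PAD4 signaling and salicylic acid (SA) synthesis, are all intact. The fls2 genotype is a single null line (SAIL_691_C4) in the same accession with these 4 genes intact, so that only the receptor separates the 2 genotypes by design. The groups were JEPS at 18 h, fls2 at 18 h, JEPS at 0 h and fls2 at 0 h. Plants were 31 to 32 days old. Leaves at 18 h had been infiltrated with 1 μM flg22, whereas leaves at 0 h were left untouched, so a change by 18 h within 1 genotype also holds the infiltration itself and a different harvest time of day. Each replicate was a pool of 12 leaves from 4 independent experiments.

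The peptide flg22 is the part of bacterial flagellin that plants detect. FLS2, a receptor kinase at the cell surface, binds it and pairs with the co-receptor BAK1. The pair starts kinase signaling within minutes and a large transcriptional response known as pattern-triggered immunity. SA is the hormone of resistance to biotrophic pathogens, and leaves that mount a sustained immune response are known to lower transcripts for photosynthesis while they raise those for defence and secretion.

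The table covered 33600 genes, of which 11848 passed the filter on low counts and were tested. This is a smaller set than the study's own, so shares of all genes are shares of these 11848. The 12 libraries held 762242 to 2041462 reads on genes and had reads for 14671 to 18325 genes. Values below are normalized counts, that is reads after scaling each library so that its 90th percentile count equals 300; these 90th percentile counts were 42 to 120 reads. No 2 libraries were near copies (the highest correlation of log2 levels was 0.947). The JEPS and fls2 libraries of a replicate and time point were always sequenced in different lanes. In the 12 libraries they shared a location label. For replicate 2 this label was umn at 0 h and tsl at 18 h in both genotypes. The change by 18 h within a genotype holds this as well. Mesophyll was read from the photosynthesis list given below, with 31 of 33 tested genes called lower. Of 4 marker lists for other leaf cell types, the epidermis list moved with the comparison. In it 2 of 3 tested members were called lower (FDH −1.01, CER5 −1.25), against 11.7% of all genes. Its summed level was 624.2 to 827.5 in JEPS at 18 h, against 1222 to 1754 in fls2 at 18 h, and PDF1 had no read in either group. Without 1 of the 12 libraries in turn, FDH lost its call 6 times and CER5 4 times, and FDH was not called with TMM scaling (−0.92). Of the guard cell, phloem and xylem markers, 2, 3 and 1 were tested and none was called, against 21.1% of all genes. In level at 18 h, 1 phloem marker was called lower, against 15.6% of all genes. In a fit with a replicate block within each time point, the epidermal ATML1 (−1.21) and the phloem marker SULTR2;1 (−1.45) were called lower as well. The part of cell composition in the results was not tested, and in whole leaves fewer cells of a type and less RNA per cell cannot be told apart.

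FLS2 itself (chromosome 5, 18791575 to 18795908, build TAIR10.1) had 135.5, 50.8 and 120.0 normalized counts in JEPS at 18 h, against 6.38, 0 and 5.77 in fls2 at 18 h. At 0 h it had 85.7, 75.0 and 73.7 in JEPS, against 0, 4.62 and 7.59 in fls2. The libraries of the 2 genotypes did not overlap, as the labels require. At 0 h, FLS2 was the only gene called between JEPS and fls2 (log2 difference 4.16, 1 of 11848 genes, 0.00844%; 284 genes had an unadjusted p under 0.05 in edgeR's quasi-likelihood test). Without replicate 1 of both genotypes no gene was called at 0 h. The fls2 libraries held 3 reads of FLS2 at 18 h, which gives a ratio of 23.8 for JEPS over fls2 with a 95% counting interval of 7.87 to 118. Its response by 18 h was not called between the genotypes (0.26 ± 1.39, SE, adjusted p = 0.94), and its value lay between −0.63 and 1.3 when libraries were left out.

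By 18 h, 2501 of 11848 genes (21.1%) differed between the responses of JEPS and fls2 at an adjusted p under 0.05 and an absolute log2 value above 1, the rule for a call throughout. Of these, 1118 (9.44%) were higher and 1383 (11.7%) were lower in JEPS. Which direction held more genes depended on the processing, with 1278 higher and 1255 lower under TMM scaling and 801 higher and 665 lower among genes with a mean count of at least 50. Large values were more often on the higher side: 141 genes lay above 4 and 37 lay below −4. The median value over all genes was 0.00, and the middle 90% of genes lay between −1.97 and 2.26. Without replicate 2 of the 4 groups, 1562 genes were called. With a term for sequencing lane 2901 genes were called, among them 2220 of the 2501.

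Most of the difference arose in JEPS. Between 0 h and 18 h, 4031 genes (34%) changed in JEPS, 1907 of them upward and 2124 downward. In fls2, 263 genes (2.22%) changed, 196 of them upward (1.65%) and 67 downward (0.565%). The count in fls2 fell to 134 without replicate 1, to 146 without replicate 3 and to 87 when the 12 libraries were fitted alone. At 18 h itself, 3341 genes (28.2%) differed in level between JEPS and fls2, with 1488 higher and 1853 lower in JEPS. Under TMM scaling this split was 1698 higher and 1645 lower, and that of JEPS at 18 h against 0 h was 2082 upward and 1974 downward. The 3 libraries of JEPS and the 3 of fls2 did not overlap for 42% of all tested genes at 18 h (JEPS higher for 19.6% and lower for 22.4%), against 5.39% at 0 h (JEPS higher for 2.45% and lower for 2.95%). The plot of changes in the 2 genotypes shows this as a cloud stretched along the JEPS axis.

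**Figure D1:**
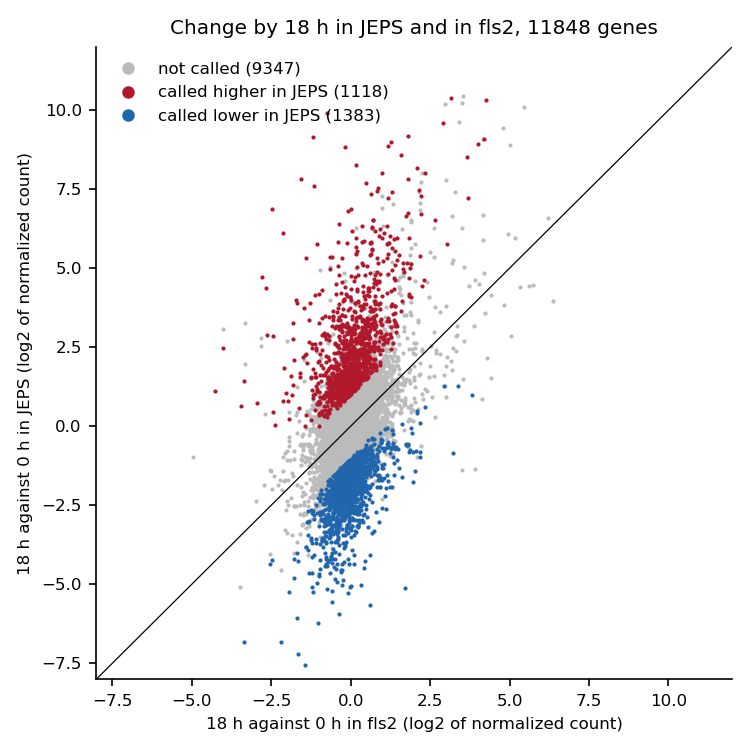
Change between 0 h and 18 h for each of 11848 genes, with fls2 on the horizontal axis and JEPS on the vertical axis (both log2 of normalized counts, estimated from 3 libraries a group). The 1118 genes called higher and the 1383 called lower in JEPS lie off the diagonal line of equal change, mostly above and below the origin. A gene without reads in a group has no bounded change and is placed by the fit.

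Promoters are shown for genes at the centre of the comparison, because the called genes differ in the short motifs that their promoters hold. The sequences are the 250 bases before the annotated start in TAIR10.1 (RefSeq), written 5′ to 3′ on the strand of the gene. The first set has TTGAC, the core of the W-box bound by WRKY factors, in capitals on either strand (GTCAA is its reverse complement). These 3 had the most matches in this window among the named genes that were called higher: SARD1 (chr1:27749249-27749498, minus strand), SYP122 (chr3:19427231-19427480, minus strand) and the peroxidase gene AT5G64120 (chr5:25661008-25661257, minus strand).
SARD1: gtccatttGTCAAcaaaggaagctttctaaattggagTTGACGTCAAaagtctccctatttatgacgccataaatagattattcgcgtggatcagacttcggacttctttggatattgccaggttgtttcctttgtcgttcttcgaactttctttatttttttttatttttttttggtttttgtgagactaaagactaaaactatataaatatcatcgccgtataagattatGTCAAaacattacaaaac
SYP122: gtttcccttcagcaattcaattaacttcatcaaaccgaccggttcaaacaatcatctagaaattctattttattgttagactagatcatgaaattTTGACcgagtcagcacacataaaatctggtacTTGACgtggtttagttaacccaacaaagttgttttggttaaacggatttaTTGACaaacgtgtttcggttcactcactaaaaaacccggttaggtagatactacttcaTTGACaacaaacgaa
AT5G64120: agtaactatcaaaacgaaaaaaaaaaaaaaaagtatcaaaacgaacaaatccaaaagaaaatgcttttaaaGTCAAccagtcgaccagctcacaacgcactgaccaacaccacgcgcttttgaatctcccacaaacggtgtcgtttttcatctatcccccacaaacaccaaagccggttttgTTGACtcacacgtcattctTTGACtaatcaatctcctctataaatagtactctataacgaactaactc

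The second set are promoters of ER chaperone genes with CCACGTCA in capitals, letters found in the elements through which the unfolded protein response raises such genes; this motif was added after the values were seen. They are SHD (chr4:12556059-12556308, minus strand), PDIL1-1 (chr1:7645360-7645609, plus strand) and CRT1 (chr1:21092710-21092959, minus strand).
SHD: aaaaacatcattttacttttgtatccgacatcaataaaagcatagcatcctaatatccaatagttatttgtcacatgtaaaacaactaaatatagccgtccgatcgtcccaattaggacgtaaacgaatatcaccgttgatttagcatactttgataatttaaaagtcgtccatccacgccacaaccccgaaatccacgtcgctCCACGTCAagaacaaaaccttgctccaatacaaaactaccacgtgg
PDIL1-1: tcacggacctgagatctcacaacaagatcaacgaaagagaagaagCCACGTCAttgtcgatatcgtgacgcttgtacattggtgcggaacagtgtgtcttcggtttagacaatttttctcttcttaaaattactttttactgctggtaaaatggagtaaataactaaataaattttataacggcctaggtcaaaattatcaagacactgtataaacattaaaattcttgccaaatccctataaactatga
CRT1: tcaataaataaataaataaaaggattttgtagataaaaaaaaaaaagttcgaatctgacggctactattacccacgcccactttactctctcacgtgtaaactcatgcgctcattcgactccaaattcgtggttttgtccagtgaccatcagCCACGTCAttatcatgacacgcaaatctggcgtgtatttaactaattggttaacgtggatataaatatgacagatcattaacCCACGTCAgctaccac

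The third set are promoters of photosynthesis genes with GATAAG, the I-box of light-regulated promoters, in capitals on either strand (CTTATC is its reverse complement). They are PSBQ-2 (chr4:2673244-2673493, minus strand), RBCS2B (chr5:15382072-15382321, minus strand) and PSAH2 (chr1:19454548-19454797, plus strand).
PSBQ-2: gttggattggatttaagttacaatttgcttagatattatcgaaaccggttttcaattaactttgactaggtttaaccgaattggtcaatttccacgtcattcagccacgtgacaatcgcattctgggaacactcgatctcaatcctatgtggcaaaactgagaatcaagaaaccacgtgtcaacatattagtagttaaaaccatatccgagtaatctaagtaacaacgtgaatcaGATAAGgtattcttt
RBCS2B: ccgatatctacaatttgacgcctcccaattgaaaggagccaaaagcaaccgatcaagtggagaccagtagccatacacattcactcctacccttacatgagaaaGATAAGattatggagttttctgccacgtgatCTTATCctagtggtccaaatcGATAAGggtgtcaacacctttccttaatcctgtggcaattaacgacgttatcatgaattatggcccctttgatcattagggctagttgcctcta
PSAH2: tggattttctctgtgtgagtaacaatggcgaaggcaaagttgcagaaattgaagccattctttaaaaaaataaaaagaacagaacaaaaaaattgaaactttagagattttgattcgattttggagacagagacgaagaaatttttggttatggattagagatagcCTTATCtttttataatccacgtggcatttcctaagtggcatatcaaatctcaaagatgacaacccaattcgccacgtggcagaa

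Over windows of 300 bases (250 before and 50 after the start), searched on both strands, TTGAC stood in 66.2% of the promoters of genes called higher, in 42.6% of those called lower and in 51.6% of all 11762 tested genes with a promoter sequence. GATAAG stood in 15.4% of promoters of genes called higher, 22.7% of those called lower and 15.7% of all, and in 16 of 33 promoters of the photosynthesis list. CACGTG, the G-box, stood in 8.41%, 11.2% and 9.09% of the same 3 sets. TGACG, the core of elements bound by TGA factors, stood in 29.3%, 23.3% and 24.1%, and its letters overlap TTGAC where both are adjacent. AGCCGCC, the GCC box of ethylene response factors, was rare in each set (0.716%, 0.58% and 0.876%), as was AAAATATCT, the evening element (3.49%, 4.13% and 3.38%). CCACGTCA, which contains TGACG on its other strand, stood in 5 of 11 promoters of the tested ER chaperone genes, against 2.86% of promoters of genes called higher, 3.19% of those called lower and 2.13% of all. TGACG and CACGTG each stood in 6 of the same 11 promoters. These matches are letters in a window and were not tested as binding sites.

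The genes with the highest values stood far higher in JEPS at 18 h than in fls2 at 18 h. They included a peroxidase, receptor kinases, a lipid transfer-like protein and several genes of little known function. The peroxidase gene AT5G64120 (chromosome 5, 25659257 to 25661007) had 21726, 28297 and 16288 normalized counts in JEPS at 18 h, against 127.7, 94.4 and 126.9 in fls2 at 18 h. At 0 h it had 42.9, 39.5 and 55.3 in JEPS, against 66.3, 32.3 and 53.2 in fls2. All 3 JEPS libraries at 18 h stood at 16288 or above and the other 9 libraries at 127.7 or below. The value was 7.69 ± 0.53 (SE), a 206-fold difference in response with an adjusted p of 2.3e-29.

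AZI1, a lipid transfer-like protein linked to systemic priming by azelaic acid, had 12498, 12244 and 12588 normalized counts in JEPS at 18 h, against 118.1, 61.1 and 103.8 in fls2 at 18 h. At 0 h the levels were 7.14, 3.95 and 13.2 in JEPS, against 6.98, 0 and 22.8 in fls2. AZI1 thus also stood higher in fls2 at 18 h than at 0 h, by 3.16 on the log2 scale, but the JEPS libraries did not overlap with any others (value 7.23 ± 0.88, adjusted p = 9.2e-10). CRK13, a cysteine-rich receptor-like kinase, had 2608, 2069 and 2208 in JEPS at 18 h, against 35.1, 72.2 and 51.9 in fls2 at 18 h. Its value of 6.69 ± 1.18 rests on 2 reads in JEPS at 0 h. IOS1, a leucine-rich repeat receptor kinase that acts with pattern receptors, had 1887, 1663 and 1928 in JEPS at 18 h, against 19.1, 0 and 40.4 in fls2 at 18 h (7.38 ± 1.38, likewise with 2 reads in JEPS at 0 h), and its call was lost without replicate 3 of fls2 at 0 h (6.16, adjusted p = 0.067). Both kinases were thus high in every JEPS library at 18 h and low in every library of the other groups.

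The other 8 genes of the top 12 had 132.2 to 1485 normalized counts in JEPS at 18 h and at most 27.8 in fls2 at 18 h. PCR2, a cadmium resistance family protein (6.90 ± 1.22), LHT7, of the LYS/HIS transporter family (6.88 ± 1.21), and VSR6, annotated as a vacuolar sorting receptor (6.72 ± 2.09), stood beside AT5G25260, a membrane-associated SPFH/PHB domain protein (6.78 ± 1.45), and the uncharacterized genes AT1G36622 (7.22 ± 1.72) and AT3G21351 (6.71 ± 1.24). The call of AT1G36622 was lost without replicate 1 of fls2 at 0 h (5.77) and that of AT3G21351 without replicate 3 of fls2 at 0 h (4.94). For the remaining pair the reads in fls2 at 18 h were so few that the fitted values, 8.25 ± 1.88 for the acyltransferase gene AT5G42830 and 7.51 ± 1.75 for PP2-A5, a phloem lectin family member, are imprecise. AT5G42830 had 239 reads in JEPS and 2 in fls2 at 18 h, a scaled ratio of 99.2 with a 95% counting interval of 27.2 to 824. PP2-A5 had 167 reads in JEPS and 1 in fls2 at 18 h, a ratio of 139 with an interval of 24.5 to 5506. All counting intervals cover counting error only.

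The genes with the lowest values had lower means in JEPS at 18 h than in any of the other 3 groups. They included an antenna protein, an extensin-like protein, a xyloglucan enzyme, a thionin and a transcription factor. LHCB2.3, a light-harvesting protein of photosystem II, had 362.9, 472.9 and 620.0 normalized counts in JEPS at 18 h, against 14729, 11411 and 11712 in fls2 at 18 h. At 0 h it had 13693, 17779 and 15761 in JEPS, against 15223, 18388 and 12125 in fls2. Its value was −4.74 ± 0.56 (adjusted p = 7.7e-12), and no JEPS library at 18 h came near any of the other 9.

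ELP, an extensin-like protein, had 183.9, 142.4 and 552.5 in JEPS at 18 h, against 14745, 8106 and 12756 in fls2 at 18 h (−5.37 ± 0.64). XTH6, an enzyme that cuts and rejoins xyloglucan in the wall, had 19.4, 15.3 and 42.5 in JEPS at 18 h, against 593.6, 1167 and 871.2 in fls2 at 18 h (−5.20 ± 0.62). The thionin gene AT1G66100 had 145.2, 122.0 and 105.0 in JEPS at 18 h, against 3574, 2083 and 3000 in fls2 at 18 h (−4.74 ± 0.49, adjusted p = 3.2e-15). None of these 3 overlapped between genotypes at 18 h, which was a condition for naming the highest and lowest genes. At 0 h the genotypes had like levels (differences of 0.08, 0.27 and 0.18).

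The lipid transfer family gene AT2G10940 had 24.2, 0 and 92.5 in JEPS at 18 h, against 1254, 1433 and 3479 in fls2 at 18 h and 7193, 8791 and 4416 in JEPS at 0 h (−5.56 ± 0.98). HAT1, a homeodomain-leucine zipper factor, had 0, 0 and 10.0 in JEPS at 18 h, against 134.0, 83.3 and 161.5 in fls2 at 18 h (−4.96 ± 1.00). AGP26, an arabinogalactan protein (−5.19 ± 1.02), AT3G60290, a dioxygenase family gene (−4.91 ± 0.98), and the uncharacterized AT5G01790 (−4.68 ± 0.93) had 4 or 5 reads over the 3 JEPS libraries at 18 h. AT4G28780, a GDSL lipase family gene, had 1 read in JEPS and 48 in fls2 at 18 h, so that fls2 over JEPS was 57.8 with a counting interval of 9.9 to 2332. AT3G26960, of the Ole e 1 and extensin family, had 3 reads in JEPS and 113 in fls2, a ratio of 45.4 for fls2 over JEPS with an interval of 15.1 to 223.

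The lowest value belonged to ATCG01060, a code without an entry in the annotation used here (−6.26 ± 2.19, adjusted p = 0.03). It had 58.1, 25.4 and 67.5 in JEPS at 18 h, against 146.8, 5511 and 115.4 in fls2 at 18 h, and 242.9, 201.3 and 7526 in JEPS, against 394.2, 203.1 and 3194 in fls2 at 0 h. Its highest values, of 3194 or more, thus came from 1 library of a group, or from none. Its call was lost in 7 of the 12 fits without 1 library, and with a term for sequencing lane its value was 0.34.

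**Figure D2:**
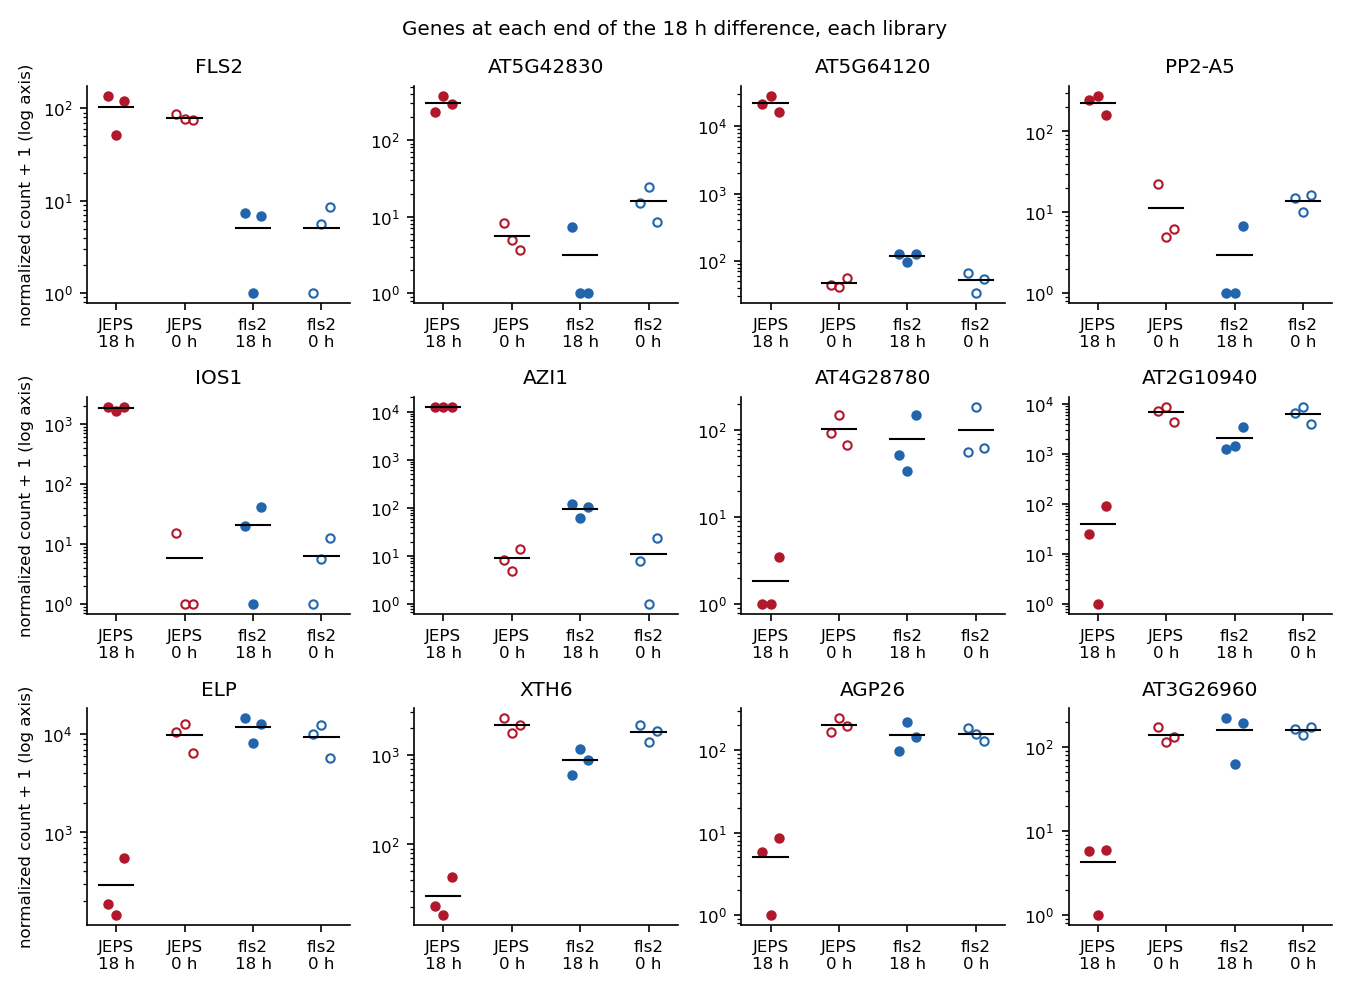
Normalized count + 1 on a log axis in each library for FLS2, 5 of the genes with the highest and 6 with the lowest values. Red marks JEPS and blue fls2, filled points 18 h and open points 0 h, and bars are group means of 3 libraries. JEPS at 18 h stands apart from the other 3 groups in every panel but that of FLS2, which is low in both fls2 groups. For all panels but FLS2, no overlap of JEPS with fls2 at 18 h was a condition of choice.

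Gene lists for pathways known in leaf immunity and leaf function were then read against the whole table. They were chosen with earlier results of these data known, so their counts describe the lists and test nothing about them. In the list of SA synthesis 4 of 5 tested genes were called higher, against 9.44% of all genes, and the median value was 3.70. The sixth member, EPS1, was too low to test and had −0.11 in a fit without the filter on low counts (adjusted p = 1.0). CBP60G and SARD1, factors that drive transcription of SID2, and SID2, the isochorismate synthase that makes most pathogen-induced SA, led the list. CBP60G had 1292, 1134 and 1142 in JEPS at 18 h, against 41.5, 94.4 and 40.4 in fls2 at 18 h (4.79 ± 0.65, adjusted p = 3.7e-10). SARD1 had 575.8, 503.4 and 642.5 in JEPS at 18 h, against 54.3, 16.7 and 40.4 in fls2 at 18 h (4.73 ± 0.93). SID2 had 503.2, 478.0 and 605.0 in JEPS at 18 h, against 70.2, 77.8 and 69.2 in fls2 at 18 h (3.70 ± 0.76). EDS5, which exports the precursor from the plastid, was called (3.54 ± 1.02), whereas PBS3, which conjugates it, had 2.94 ± 1.29 and an adjusted p of 0.085 although its libraries did not overlap at 18 h. With the replicate block PBS3 was called too (2.85, adjusted p = 0.0071).

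Among receptors and outputs of SA, 6 of 7 tested genes were called higher, against 9.44% of all genes, with a median of 1.94. WRKY70 had 2274, 3788 and 2298 in JEPS at 18 h, against 916.0, 766.7 and 709.6 in fls2 at 18 h (2.49 ± 0.62). NIMIN2, which binds the SA receptor NPR1, had 662.9, 447.5 and 392.5, against 35.1, 38.9 and 17.3 (4.93 ± 1.3). The receptors NPR3 (1.52 ± 0.47) and NPR1 (1.21 ± 0.46) differed less. In the 12 fits without 1 library, NPR1 lost its call 8 times, with values of 0.71 to 1.42, and NPR3 lost its call in 1. Without replicate 3 of JEPS at 0 h 2 of the 7 were called, and 3 without replicate 2 of JEPS or replicate 1 of fls2 at 0 h. PR1, the textbook marker of SA output, had no read in too many of the 357 libraries to be tested. It had 7408, 19658 and 11470 in JEPS at 18 h, against 746.8, 138.9 and 28.8 in fls2 at 18 h, and 885.7, 7.89 and 68.4 in JEPS, against 1765, 32.3 and 801.3 in fls2 at 0 h. Its level at 0 h therefore varied widely among libraries, while all JEPS libraries at 18 h stood above the other 9. PR2, a glucanase, overlapped between the genotypes at 18 h (595.2, 1978 and 1358 in JEPS, against 1401, 588.9 and 184.6 in fls2; adjusted p = 0.16), and PR5 was called with overlapping levels at 18 h (1.94 ± 0.68), but lost its call in 6 of the 12 fits without 1 library, with values of 0.29 to 3.09.

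EDS1, PAD4 and their helper NLRs, which relay signals from immune receptors to SA, had 5 of 8 genes called higher and a median of 2.07. Of all genes, 9.44% were called higher. ADR1-L2 had 445.2, 594.9 and 500.0 in JEPS at 18 h, against 127.7, 222.2 and 126.9 in fls2 at 18 h (2.03 ± 0.36). SAG101 had 401.6, 289.8 and 370.0, against 98.9, 50.0 and 98.1 (2.16 ± 0.39). ADR1-L1 (1.88 ± 0.37), EDS1 (2.60 ± 0.52) and ADR1 (3.21 ± 0.77) were also called, while PAD4 missed the threshold (2.12 ± 0.85, adjusted p = 0.055) and was called with the replicate block (2.34, adjusted p = 0.0019). In the list around N-hydroxypipecolic acid, the signal of systemic resistance, SARD4 was the only tested member and was called (2.96 ± 0.52). Of the untested members, UGT76B1 had 330 reads in JEPS and 3 in fls2 at 18 h (ratio 91.3, interval 31.0 to 445). FMO1, the enzyme of the last step of synthesis, had 44 reads in JEPS and none in fls2. This is at least 12.2-fold higher in JEPS when 3 reads are set as the floor over the fls2 group. In the edgeR fit without the filter on low counts, the responses of UGT76B1 (7.26) and ALD1 (6.08) were called higher. That of FMO1 was not (6.6, adjusted p = 0.22).

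Of 12 tested surface receptors and partners, 9 were called higher, against 9.44% of all genes, with a median of 2.11. The co-receptor BAK1 had 430.6, 462.7 and 422.5 in JEPS at 18 h, against 137.2, 72.2 and 126.9 in fls2 at 18 h (1.96 ± 0.31, adjusted p = 7.6e-08). SOBIR1, the adaptor kinase of receptor-like proteins, had 1965, 3183 and 2002, against 478.7, 538.9 and 450.0 (2.63 ± 0.41). BIK1, the cytoplasmic kinase downstream of FLS2, had 338.7, 279.7 and 380.0, against 47.9, 22.2 and 40.4 (3.16 ± 0.54). The receptors RLP23 (3.51 ± 0.76), CERK1 (2.31 ± 0.45) and LORE (2.11 ± 0.52), the regulator BIR1 and the NADPH oxidase RBOHD (1.22 ± 0.42) were called as well. FLS2, EFR (1.04 ± 0.81) and PEPR1 (−1.71 ± 0.86) were not, and the level of PEPR1 at 18 h was called lower with the replicate block (−1.29). The untested PEPR2 had no read in JEPS at 18 h and a value of −3.92 without the filter, not called (adjusted p = 0.28). The call of RBOHD was lost in 4 of the 12 fits without 1 library. FRK1, a kinase gene used as a flg22 marker, had 1500, 2197 and 1242 in JEPS at 18 h and no read in the other 9 libraries, and stood at least 343-fold higher in JEPS than in fls2 at 18 h with the same floor.

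Of the cysteine-rich receptor-like kinases, 9 of 14 tested genes were called higher, against 9.44% of all genes. Besides CRK13, CRK5 had 241.9, 355.9 and 330.0 in JEPS at 18 h, against 114.9, 55.6 and 121.2 in fls2 at 18 h (2.27 ± 0.44), and CRK22 had 1234, 1408 and 830.0, against 175.5, 338.9 and 167.3 (2.41 ± 0.48). CRK4 (−0.27), CRK10 (−0.48) and CRK19 (0.89) were below the fold threshold. Many members of this family lie in tandem and are alike, so reads that map to more than 1 gene, which the authors removed, make their levels uncertain. Fitted on the 12 libraries alone, 5 of the 14 were called.

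The endoplasmic reticulum folds secreted proteins and surface receptors with chaperones such as BiP. All 11 tested genes of the chaperone list were called higher, against 9.44% of all genes. Their values were 2.01 to 3.77, with a median of 2.52. ERDJ3B, a co-chaperone that works with SDF2, had 1529, 1134 and 1292 in JEPS at 18 h, against 341.5, 305.6 and 253.8 in fls2 at 18 h (2.98 ± 0.35, adjusted p = 2.2e-12). SDF2 had 803.2, 910.2 and 737.5, against 287.2, 122.2 and 184.6 (2.25 ± 0.35). The calreticulin CRT2 had 2366, 1251 and 1908, against 564.9, 316.7 and 438.5 (2.35 ± 0.39). At 0 h these genes varied among libraries of both genotypes (CRT2 had 323.7 to 778.6 in JEPS and 402.5 to 907.0 in fls2). PDIL1-2 and PDIL1-1, protein disulfide isomerases, had 3.77 ± 0.64 and 3.08 ± 0.58, the BiP genes BIP2 and BIP1 had 3.34 ± 0.67 and 2.69 ± 0.50, and SHD, the ER form of HSP90, had 2.43 ± 0.41. BIP1 and BIP2 are near copies, so the division of reads between them is uncertain.

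Secretion genes followed. PEN1, a syntaxin of the plasma membrane, had 822.6, 762.7 and 860.0 in JEPS at 18 h, against 137.2, 233.3 and 230.8 in fls2 at 18 h (1.90 ± 0.33), and its close relative SYP122 had 914.5, 574.6 and 712.5, against 76.6, 38.9 and 51.9 (3.98 ± 0.88). SNAP33, which pairs with PEN1, was also called (2.00 ± 0.48). MLO2, the main powdery mildew susceptibility gene, had 2405, 2669 and 2360, against 497.9, 466.7 and 640.4 (2.46 ± 0.32, adjusted p = 1.4e-10), and MLO6 had 3.17 ± 1.12 but lost its call in 7 of the 12 fits without 1 library. In all, 5 of 8 tested members were called higher, against 9.44% of all genes, and VAMP722 was added with the replicate block (1.01, adjusted p = 0.0035). MLO12 had 2124, 1881 and 2092 in JEPS at 18 h, against 12.8, 16.7 and 11.5 in fls2 at 18 h, but fls2 had no read at 0 h, so its response there has no bounded size and the difference was not called (adjusted p = 0.93). Levels of MLO12 at 18 h differed by 7.19.

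Glutathione transferases conjugate reactive compounds. GSTF6 had 6944, 7520 and 7250 in JEPS at 18 h, against 402.1, 238.9 and 323.1 in fls2 at 18 h (4.78 ± 0.52, adjusted p = 5.5e-14), and GSTF7 had 5327, 5624 and 4492, against 271.3, 250.0 and 155.8 (4.56 ± 0.47). These 2 are tandem copies. Of 5 tested members 3 were called higher, against 9.44% of all genes. The third was GSTF2 (1.90 ± 0.50, but 1.27 and not called without replicate 1 of fls2 at 0 h). GSTU19 had −0.30 ± 0.36.

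Phenylpropanoid genes lead to lignin and other wall phenolics. Of 14 tested members, 9 were called higher and none lower, against 9.44% and 11.7% of all genes, with a median of 1.63. C4H, the second step of the pathway, had 4147, 4414 and 4162 in JEPS at 18 h, against 414.9, 472.2 and 450.0 in fls2 at 18 h (3.27 ± 0.28, adjusted p = 1.8e-21). At 0 h C4H had 357.1, 536.8 and 494.7 in JEPS, against 495.3, 364.6 and 558.2 in fls2, so fls2 at 18 h stood within its 0 h range. COMT1, a methyltransferase of monolignol synthesis, had 7994, 8598 and 7270, against 1210, 1517 and 1321 at 18 h (2.64 ± 0.28), and CAD5, an alcohol dehydrogenase of the last step, had 1877, 1546 and 1630, against 287.2, 216.7 and 305.8 (2.32 ± 0.33). PAL1 was called (3.75 ± 0.59) and PAL2, which encodes the same enzyme, was not (0.04 ± 0.35). Flavonoid genes, a side branch, were mostly too low to test. UGT78D1, a flavonol glycosyltransferase, was lower in JEPS (14.5, 5.08 and 35.0, against 226.6, 161.1 and 184.6 in fls2 at 18 h, value −3.40 ± 0.63). Of 8 untested members in the edgeR fit without the filter on low counts, 2 were called lower and none higher. These were CHS (−3.72, adjusted p = 0.0014) and F3H (−2.67, adjusted p = 0.017). In that fit 1569 of 21120 genes were called lower.

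Glucosinolates are the sulfur-rich defence compounds of this plant family. Of the aliphatic class 10 of 13 genes were called lower, against 11.7% of all genes, with a median of −1.68. MAM1, which lengthens the side chain, had 798.4, 961.0 and 882.5 in JEPS at 18 h, against 3010, 2850 and 2677 in fls2 at 18 h (−1.68 ± 0.38). CYP83A1 had 716.1, 905.1 and 1085, against 2844, 3417 and 3635 (−1.95 ± 0.44). SOT18, a sulfotransferase, had 106.5, 172.9 and 220.0, against 517.0, 805.6 and 525.0 (−1.88 ± 0.47). The regulators MYB28 (−1.55 ± 0.44) and MYB29 (−1.79 ± 0.64) were called lower too, MYB29 in 7 of the 12 fits without 1 library. Without replicate 1 of the 4 groups, 6 of the 13 genes were called lower.

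Of 11 tested genes of the indole class, 2 were called higher and 1 lower, against 9.44% and 11.7% of all genes. The classes were not tested against each other. With the replicate block 4 were called higher, the added ones being MYB51 (1.70) and IGMT2 (5.59). CYP83B1 had 2918, 3295 and 3408 in JEPS at 18 h, against 1337, 1100 and 1552 in fls2 at 18 h (1.34 ± 0.35), but 0.97 without replicate 1 of fls2 at 0 h, under the fold threshold. CYP81F2, which starts the synthesis of methoxylated forms, had 40 reads in JEPS and 1 in fls2 at 18 h, and its fitted value of 4.78 ± 1.75 is imprecise. MYB34, a regulator of the class, was lower (14.5, 20.3 and 17.5 in JEPS, against 70.2, 100.0 and 69.2 in fls2 at 18 h; −2.30 ± 0.68). Tryptophan synthesis, which feeds the class, had 2 of 7 genes called higher, IGPS (1.36 ± 0.38) and TSA1 (1.25 ± 0.36), and all 7 values above 0. For camalexin, the main phytoalexin, the median of 5 tested genes was −0.64, 3 of them lay below 0, and 1 was called, the regulator WRKY33 (1.98 ± 0.74), with 527.4, 147.5 and 607.5 in JEPS at 18 h, against 121.3, 111.1 and 213.5 in fls2 at 18 h, which overlap. Its call was lost in 7 of the 12 fits without 1 library. The untested CYP71A12 had 100 reads in JEPS and 2 in fls2 at 18 h, a ratio of 41.5 with an interval of 11.2 to 347, but its response was not called without the filter (7.24, adjusted p = 0.16), nor was that of CYP71A13 (−2.09).

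**Figure D3:**
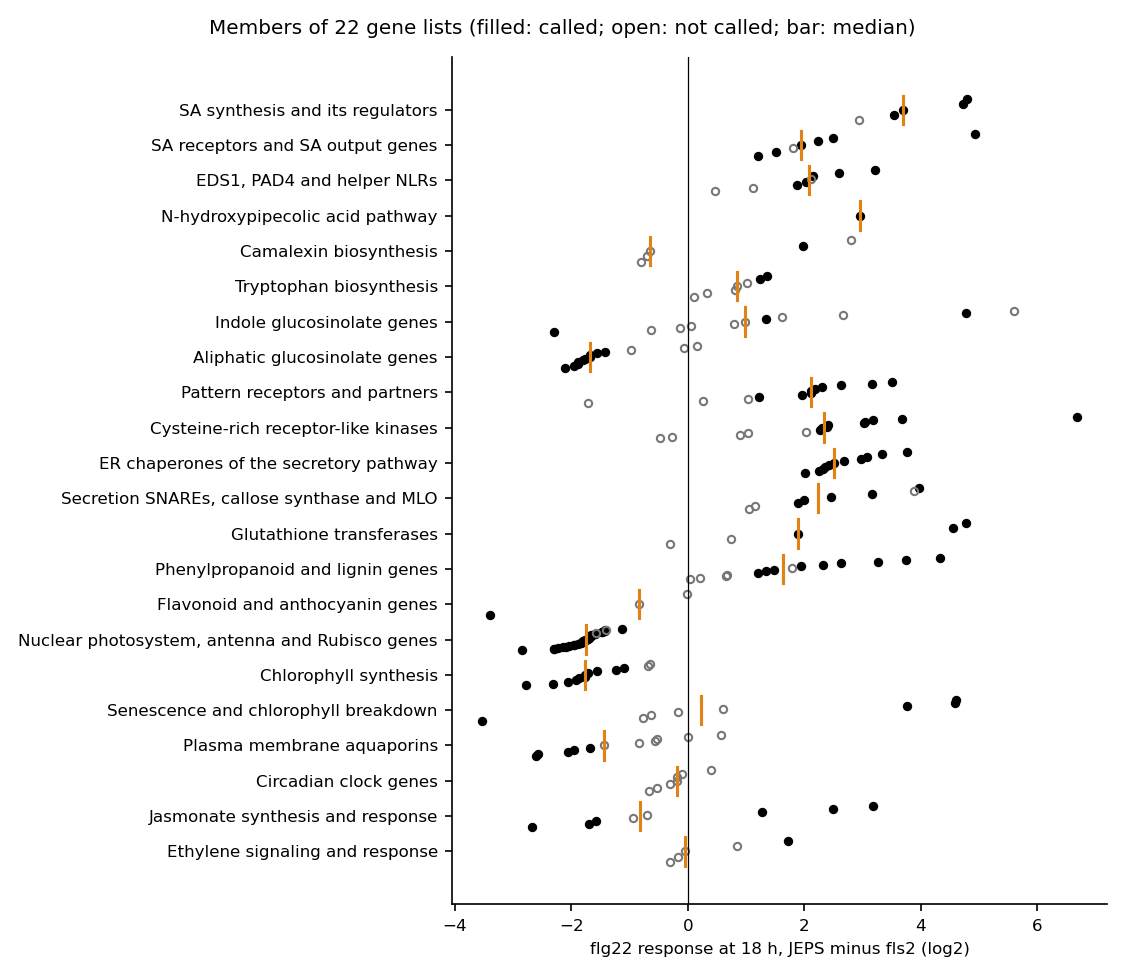
The 18 h difference in response (JEPS minus fls2, log2, horizontal axis) of each tested member of 22 gene lists, a list to a row. Filled points are called genes, open points are not, and the orange bar is the list's median. All 11 ER chaperones lie at 2.01 or above and all 33 photosynthesis genes at −1.12 or below, while the 7 clock genes lie between −0.67 and 0.40. Of the clock genes, PRR5 had no read in either genotype at 0 h and is placed by the fit.

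Nuclear genes of photosynthesis were lower throughout. Of 33 tested genes for photosystem subunits, antenna proteins and Rubisco, 31 were called lower, against 11.7% of all genes, with values of −2.84 to −1.12 and a median of −1.75, and the libraries of all 33 did not overlap at 18 h (22.4% of all genes were lower in JEPS without overlap). PSBS, the protein of photoprotective quenching, had 1747, 1327 and 2035 in JEPS at 18 h, against 8690, 7211 and 8902 in fls2 at 18 h (−2.23 ± 0.27, adjusted p = 4.3e-12). PSAN, a photosystem I subunit, had 4306, 3925 and 4392, against 20406, 20461 and 21785 (−2.30 ± 0.36). PSBQ-2, of the oxygen-evolving complex, had 4921, 5375 and 5412, against 20914, 21222 and 21865 (−2.15 ± 0.34). In fls2 itself, none of the 33 was called between 0 h and 18 h (values of −0.79 to 0.35, 2 of them at an unadjusted p under 0.05 in edgeR's quasi-likelihood test).

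RBCS2B, a small subunit of Rubisco, had the lowest value of the list, with 2076, 2903 and 2880 in JEPS at 18 h, against 16184, 19244 and 22662 in fls2 at 18 h (−2.84 ± 0.49). The 2 members not called were RBCS1A (−1.57 ± 0.64, adjusted p = 0.064) and LHCB2.1 (−1.40 ± 0.80, adjusted p = 0.22), both without overlap at 18 h and both called with the replicate block (−1.64 for RBCS1A and −1.43 for LHCB2.1). Of the 31 called genes, LHCB1.3, LHCA2, RCA, LHCB1.1 and RBCS3B lost the call in 3 to 9 of the 12 fits without 1 library. With TMM scaling 29 of the 33 were called lower, and LHCA2 (−1.37) and LHCB1.3 (−1.88) were not. RBCS and LHCB genes exist in near-identical copies and their separate levels are uncertain. The list took 7.95% ± 0.361 of all reads in JEPS at 18 h, against 20.1% ± 1.19 in fls2 at 18 h, 21.4% ± 2.01 in JEPS at 0 h and 21.0% ± 2.17 in fls2 at 0 h (SD, n = 3 each). At 18 h the difference was −12.1 percentage points.

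**Figure D4:**
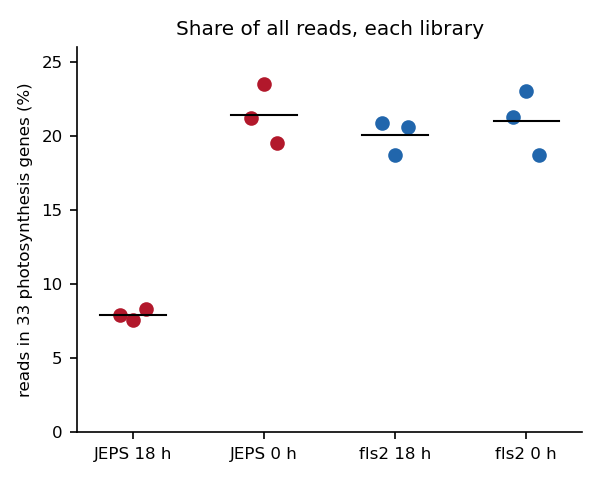
Percentage of all gene reads that fell on the 33 photosynthesis genes in each library (points) with group means (bars). The 3 libraries of JEPS at 18 h lie between 7.61% and 8.33%, and the other 9 between 18.7% and 23.5%.

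Chlorophyll synthesis moved in the same direction, with 11 of 13 genes called lower, against 11.7% of all genes, and a median of −1.76. With TMM scaling 10 of the 13 were called lower, and CHLG lost its call. CHLM, a methyltransferase of the magnesium branch, had 493.5, 737.3 and 560.0 in JEPS at 18 h, against 1867, 2772 and 2267 in fls2 at 18 h (−1.92 ± 0.34). CHLP had 1669, 1083 and 1818, against 6166, 5017 and 6375 (−2.05 ± 0.39). DVR had 33.9, 0 and 35.0, against 166.0, 177.8 and 184.6 (−2.78 ± 0.66). CHLD (−0.65 ± 0.33) and CHLI1 (−0.69 ± 0.32), 2 subunits of magnesium chelatase, were not called, while the third subunit CHLH was (−1.55 ± 0.38).

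Genes of chlorophyll breakdown were not called. PAO (0.61 ± 0.42), NYE1 (−0.63 ± 0.44) and NYC1 (−0.16 ± 0.50) lay within the fold threshold. Of the senescence list, WRKY53 had 812.9, 1398 and 750.0 in JEPS at 18 h, against 35.1, 66.7 and 46.2 in fls2 at 18 h (4.59 ± 0.72), and SAG21 had 2303, 2827 and 1410, against 146.8, 422.2 and 57.7 (3.76 ± 0.53). SAG13 was called higher too (4.61 ± 1.13), although its 0 h levels were uneven, with 90.7, 18.5 and 11.4 in fls2, and was not called without the first of these (3.12, adjusted p = 0.077). SEN1 was lower (−3.53 ± 0.79), and SAG12, the marker of late senescence, had no read in any of the 12 libraries.

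Of 11 tested plasma membrane aquaporins, 5 were called lower and none higher, against 11.7% and 9.44% of all genes. PIP2;7 had 111.3, 106.8 and 157.5 in JEPS at 18 h, against 746.8, 705.6 and 969.2 in fls2 at 18 h, and 2214, 1903 and 1676 in JEPS at 0 h (−2.57 ± 0.47); it was also called lower at 18 h than at 0 h in fls2 (−1.34). PIP2;6 had 508.1, 559.3 and 585.0, against 2381, 2456 and 1823 (−1.96 ± 0.39). PIP1;3 had −2.60 ± 0.61, whereas PIP2;2 (0.01 ± 0.38) and PIP2;3 (0.58 ± 0.52) lay near 0. Without replicate 1, 2 or 3 of the 4 groups, 3 aquaporins were called each time.

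In the JA list 3 of 8 tested genes were called higher and 3 lower, against 9.44% and 11.7% of all genes. Lower were CLH1, a JA-induced chlorophyllase, with 130.6, 203.4 and 150.0 in JEPS at 18 h, against 893.6, 733.3 and 928.8 in fls2 at 18 h (−2.68 ± 0.49), DDE2, the allene oxide synthase of JA synthesis, with 706.5, 864.4 and 630.0, against 2770, 1900 and 1471 (−1.58 ± 0.40), and the transcription factor MYC2 (−1.70 ± 0.47). MYC2 was called upward between 0 h and 18 h in fls2 (1.16) and not called in JEPS (−0.55), so its value was made largely by fls2. Higher were TAT3 (3.19 ± 0.89), JAZ1 (1.27 ± 0.41) and JAZ5 (2.49 ± 1.03). Of the 12 fits without 1 library, JAZ5 lost its call in 7, JAZ1 in 2 and TAT3 in 1. In level at 18 h, 1 of the 8 genes was called higher and 4 lower, against 12.6% and 15.6% of all genes. There JAZ1 was not called (0.95), and LOX2 was called lower (−1.03), though not with TMM scaling (−0.94). Of 5 untested members, VSP1 (−4.02, adjusted p = 0.005) and VSP2 (−3.69, adjusted p = 0.00087), vegetative storage protein genes that JA induces, were called lower in the fit without the filter, and none was called higher. VSP2 had 53.2, 10.2 and 22.5 in JEPS at 18 h, against 1382, 400.0 and 184.6 in fls2 at 18 h. For ET, PR4 alone of 5 tested genes was called, in the higher direction, against 9.44% of all genes. PR4 had 1161, 3575 and 1028 in JEPS at 18 h, against 344.7, 1233 and 334.6 in fls2 at 18 h, which overlap (1.73 ± 0.58). It lost its call in 6 of the 12 fits without 1 library.

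None of the 7 tested clock genes was called in the comparison, against 21.1% of all genes, and 0 had an unadjusted p under 0.05. The smallest adjusted p was that of PRR7 (−0.67 ± 0.36, adjusted p = 0.18, edgeR). The 6 untested members, among them CCA1 and LHY, had values of −1.61 to 1.97 in the fit without the filter on low counts. None of these was called. PRR7 had 387.1, 310.2 and 490.0 in JEPS at 18 h, against 542.6, 594.4 and 750.0 in fls2 at 18 h. GI and PRR5, clock genes with a daily rhythm, were called higher at 18 h than at 0 h in both genotypes. GI had 121.0, 55.9 and 110.0 in JEPS and 83.0, 77.8 and 155.8 in fls2 at 18 h, against 21.4, 15.8 and 31.6 in JEPS and 20.9, 46.2 and 3.80 in fls2 at 0 h. PRR5 had 33 reads in JEPS and 21 in fls2 at 18 h and none in either genotype at 0 h. The subtraction of the fls2 response left values of −0.18 ± 0.58 for GI and of no bounded size for PRR5. With a term for sequencing lane PRR7 was called lower (−1.09, adjusted p = 0.0049).

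The JEPS minus fls2 difference in level at 18 h was then set against the same difference at 9 h and at 3 h, which leaves the 0 h libraries out. Between 9 h and 18 h the JEPS minus fls2 difference moved for 241 of 11848 genes (2.03%), upward for 128 (1.08%) and downward for 113 (0.954%). With the replicate block 801 genes moved, and without replicates 1, 2 and 3 in turn 117, 39 and 131. Between 3 h and 18 h it moved for 1775 genes (15%), upward for 1287 (10.9%) and downward for 488 (4.12%). The median over all genes was 0.02 for the step from 9 h and 0.26 for the step from 3 h, so a general shift of 0.26 stands beside the upward calls from 3 h. This shift depended on the scaling: it was 0.06 with TMM, where 845 genes moved upward and 663 downward, and 0.04 with DESeq2's size factors, where 814 moved upward and 685 downward. With the replicate block 2671 genes moved from 3 h, against 1128 without replicate 1 and 758 without replicate 2.

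SARD1 and PR2 of the SA lists were called between 9 h and 18 h. SARD1 averaged 304.6 in JEPS and 145.2 in fls2 at 9 h, and 573.9 in JEPS and 37.1 in fls2 at 18 h, so its difference grew by 2.80 ± 0.73 (adjusted p = 0.013). PR2 grew by 3.24 ± 0.91. With the replicate block WRKY70 (1.62), EDS1 (1.26) and SAG101 (1.02) were called too. PR1 averaged 2641 in JEPS and 618.6 in fls2 at 9 h, and 12845 in JEPS and 304.8 in fls2 at 18 h. Relative to 3 h, WRKY70 (2.64 ± 0.60), PR5 (2.46 ± 0.68), ADR1 (3.83 ± 0.72) and SARD4 (1.99 ± 0.48) had grown.

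Of all genes, 1.08% were called upward from 9 h and 0.954% downward. Of 12 tested receptors and partners, SOBIR1 (1.51 ± 0.40), BIR1 (1.35 ± 0.34) and RLP23 (2.29 ± 0.66) were called upward. Of 14 tested cysteine-rich kinases, 2 were called upward and CRK29 downward (−2.26 ± 0.64), and CRK22 was also called downward with the replicate block (−1.10). The upward ones were CRK6 (3.13 ± 0.62) and CRK14 (1.58 ± 0.48; not called with TMM, adjusted p = 0.057). Of 11 tested ER chaperones, CRT2, CRT3, CNX1 and SDF2 were called (1.22 to 1.5), and 10 of the 11 with the replicate block. For CRT2, CNX1 and SDF2 the difference had not moved from 3 h by the same rule. BIP1, as an example of this list, averaged 5529 in JEPS and 1047 in fls2 at 3 h, 2790 in JEPS and 1423 in fls2 at 9 h, and 1431 in JEPS and 285.1 in fls2 at 18 h. Both genotypes were thus lower at 18 h than at 9 h.

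Of 14 tested phenylpropanoid genes, 3 were called and all moved downward, against 0.954% of all genes. The replicate block added PAL1 (−1.57) and CAD4 (−1.01). The difference of COMT1 moved by −1.73 ± 0.29 (adjusted p = 8.9e-06). COMT1 averaged 10594 in JEPS and 541.6 in fls2 at 9 h, and 7954 in JEPS and 1349 in fls2 at 18 h. That of PAL2 moved by −2.02 ± 0.38 and that of C3H1 by −1.37 ± 0.35. PEN2, the myrosinase of indole glucosinolate breakdown, had a value of 0.05 ± 0.19 at 18 h, and its difference moved by −1.31 ± 0.19 from 9 h. Of the 33 photosynthesis genes none was called between 9 h and 18 h (0 at an unadjusted p under 0.05), and PSBS alone was called between 3 h and 18 h (−1.28 ± 0.27); with the replicate block LHCB1.1 (1.23) and RBCS1B (1.11) were called upward from 3 h.

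**Figure D5:**
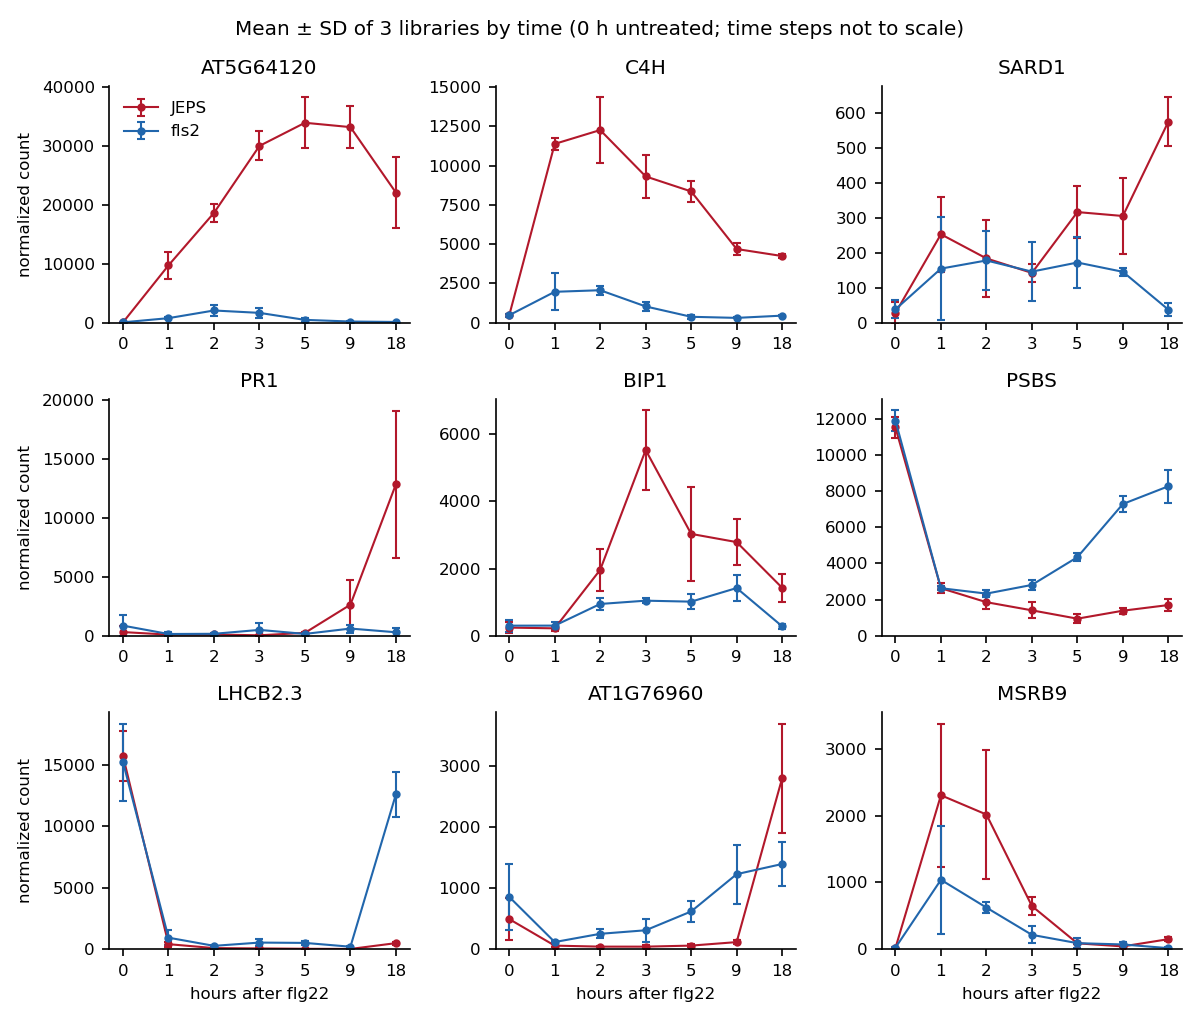
Normalized counts of 9 genes from 0 h to 18 h in JEPS (red) and fls2 (blue), as mean and SD of 3 libraries a point; time steps are not to scale and the part of an SD bar below 0 is not drawn. SARD1 and PR1 stand apart between genotypes most at 18 h, C4H and AT5G64120 from 1 h on. PSBS and LHCB2.3 were low in both genotypes at 1 h and high again in fls2 at 18 h.

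Large differences that changed between 9 h and 18 h included a few that changed sign. AT1G76960, an uncharacterized gene (chromosome 1, 28920317 to 28920976), had 90.8, 100.0 and 151.5 in JEPS at 9 h, against 718.6, 1677 and 1280 in fls2 at 9 h. At 18 h it had 1844, 3615 and 2920 in JEPS, against 1714, 1467 and 992.3 in fls2. JEPS was thus below fls2 in every library at 9 h and above it at 18 h, and the difference moved by 4.43 ± 0.68 (adjusted p = 2.8e-06).

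MSRB9, a methionine sulfoxide reductase, had 44.0, 38.7 and 37.9 in JEPS, against 20.9, 80.3 and 107.0 in fls2 at 9 h, which overlap. At 18 h it had 140.3, 183.1 and 122.5 in JEPS, against 19.1, 0 and 23.1 in fls2, so the difference grew by 4.19 ± 0.90. AT2G41170, an F-box family gene, had 112.8, 135.5 and 64.1 in JEPS, against 34.9, 16.9 and 25.2 in fls2 at 9 h, but 24.2, 0 and 2.5 in JEPS, against 31.9, 27.8 and 28.8 in fls2 at 18 h (−3.95 ± 0.76). AT1G30700, of the berberine bridge enzyme family, had 922.0, 1858 and 1028 in JEPS, against 14.0, 0 and 0 in fls2 at 9 h, and 300.0, 208.5 and 200.0 in JEPS, against 16.0, 0 and 0 in fls2 at 18 h (−3.85 ± 1.21). AT3G63380, a calcium ATPase family gene, had 333.0, 216.1 and 381.6 in JEPS, against 14.0, 50.7 and 21.0 in fls2 at 9 h, and 508.1, 528.8 and 487.5 in JEPS, against 6.38, 0 and 0 in fls2 at 18 h (3.81 ± 1.32). The 3 fls2 libraries at 18 h held 2 reads of this gene, so its value is imprecise. The calls of AT1G30700 and AT3G63380 were lost in 3 and 2 of the fits without replicate 1, 2 or 3, and that of MSRB9 without replicate 2 (3.49, adjusted p = 0.087).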

How the data were processed

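RNA abundance was measured by stranded Tag-Seq, which sequences a tag near the 3′ end of each transcript, in 357 libraries of 17 genotypes, 7 time points and 3 replicates; 12 of them carry the comparison. The deposited values are raw read counts per gene. To make these counts, the authors matched barcodes exactly, removed artefact reads, aligned with Bowtie 0.12.8 to TAIR10 transcripts, discarded reverse-strand reads and reads hitting more than 1 gene, and added up the transcripts of each gene. Genes with near-identical copies thus lose reads.

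Following the study's filter as its text states it, genes were tested when fewer than 50 libraries had no read and the count of rank 15 was above 25 (11848 genes). The study describes its filter in these terms but retained more genes, and the reason is not known. Counts were fitted in edgeR 4.0.16 (R 4.3.3) with a mean for each of 119 groups over all 357 libraries, the 90th percentile count over 300 as offset, and a two-sided quasi-likelihood F-test with Benjamini-Hochberg adjustment over the tested genes of a contrast. A call needed an adjusted p under 0.05 and an absolute log2 value above 1. Normalized counts are counts divided by the same scale. Precision is limited by totals of 762242 to 2041462 reads per library.

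Named genes were FLS2, the 12 highest and 12 lowest called genes (mean normalized count of at least 50, reads in every group, the same sign in 3 replicates, no overlap at 18 h), up to 3 called genes of a list with the smallest adjusted p, and the 5 largest changes from 9 h to 18 h; further list members were named after their values were seen. The members and lists were chosen with earlier results of these data known, and the motif CCACGTCA and the TL1 element were added after values were seen (the TL1 element stood in 0.0894% of promoters of genes called higher and 0.218% of those called lower). Printed promoters are those with the most TTGAC matches among named genes called higher and, for the other 2 motifs, those of the list members with a match and the smallest p. Names and promoters came from RefSeq TAIR10.1, which held 11762 of the 11848 codes.

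A replicate number marks libraries pooled from the same experiments. Deviations from group means correlated between JEPS and fls2 libraries of the same number and time point (mean r = 0.302, lowest 0.207, 6 pairs). Between libraries of the same number at other time points the mean r was −0.0636 (12 pairs). Between libraries of other numbers the mean r was −0.0233, with single values up to 0.332 (36 pairs). On average, the numbers thus paired genotypes within a time point. Whether lane or location label also made libraries alike was not tested here. Alternatives were TMM and DESeq2 1.42.0 size factors, other filters and thresholds, the 12 libraries alone (edgeR, DESeq2), a likelihood ratio test, replicate blocks, a lane term and leaving out libraries. The test was tested on simulated counts.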

Additional observations from a re-analysis of the deposited data

Results flagged for a closer look

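The JEPS minus fls2 difference in level moved between 9 h and 18 h by the test of that change itself for the following genes, and the mean of JEPS stood on opposite sides of that of fls2 at the 2 times. AT1G76960 moved by 4.43 ± 0.68 (adjusted p = 2.8e-06, edgeR's quasi-likelihood test) and MSRB9 by 4.19 ± 0.90 (adjusted p = 0.00049). AT2G41170 moved by −3.95 ± 0.76 (adjusted p = 5.5e-05). Of the 241 genes called in this comparison, 127 were called in their response at 18 h and 113 in that at 9 h, and AT1G76960 and AT2G41170 were the 2 called at both times with opposite signs. In the 12 fits without 1 library, the response call of AT1G76960 was lost 5 times (values of 1.21 to 2.53) and that of AT2G41170 once (−4.38 to −1.77). No cause was tested.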

How the results depend on the processing

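In the 25 alternatives that refit the data, the 2501 calls of the response comparison kept their sign wherever the gene was tested, except for 1 gene without replicate 3, 1 without replicate 3 of fls2 at 0 h and 1 with a lane term. Their number was 1763 in edgeR and 1919 in DESeq2 on the 12 libraries alone, 2675 without a filter on low counts, 1466 at a mean count of at least 50, where 1103 of the calls were not tested, 1513 with p-values pooled over 96 comparisons and 1105 above an absolute log2 value of 2. Without replicates or single libraries it was 1562 to 2541. For the level at 18 h, 1610 genes were called at a mean count of 50 and 1071 above a log2 value of 2; for JEPS at 18 h against 0 h, 1886 and 1582. At 0 h, the 12 libraries alone gave 0 calls in edgeR and 0 in DESeq2, and leaving out replicates gave 0 to 1. In fls2 at 18 h against 0 h, 87 genes were called in edgeR and 148 in DESeq2 on 12 libraries, 481 with a lane term, 86 above a log2 value of 2, and 134 to 190 without a replicate. Against 9 h the counts were 511 with a lane term, 85 above a log2 value of 2 and 39 to 131 without a replicate; against 3 h they were 866 at a mean count of 50, 615 above a log2 value of 2 and 758 to 1236 without a replicate.

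The replicate block within each time point, which pairs JEPS with fls2, gave 3275 calls for the response, 2488 of them shared, 801 against 9 h and 2671 against 3 h; of 79 named genes it changed no call of the response, and it added PBS3, PAD4, RBCS1A, LHCB2.1, MYB51, IGMT2 and VAMP722 of the pathway lists. That fit has no paired value for 18 h against 0 h within a genotype, since these lie in different blocks. A replicate block across all times gave 2684 calls for the response. For 18 h against 0 h it gave 4092 calls in JEPS and 326 in fls2. FLS2, not called, had −0.63 without replicate 3, −0.17 without replicate 2 of fls2 at 18 h and −0.59 without replicate 3 of fls2 at 0 h, within a range of −0.63 to 1.3; ATCG01060 had 0.34 with a lane term. A stricter threshold lowers a count by construction, and fewer genes tested or fewer samples can lower it. Fewer samples did not always do so, since 2541 genes were called for the response without replicate 1 of JEPS at 0 h. Otherwise the cause was not tested. Groups of 3 libraries with 90th percentile counts of 42 to 120 reads limit low genes most.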
